A study of Mus musculus with 12 samples.

Results

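MHC class II and its loading machinery were followed in mouse splenic dendritic cells through 10 probe sets of 9 genes, out of 12422 probe sets on the array. The 9 genes were H2-Aa, H2-Ab1 and H2-Eb1, which encode chains of the peptide-presenting molecules, Cd74, which encodes the invariant chain, H2-DMa and H2-DMb1, H2-Oa and H2-Ob, and Ciita. A probe set was taken when the platform annotation gave it a single gene symbol and that symbol was among the 9. H2-DMa had 2 such probe sets, a brighter and a dimmer one, and each of the other genes had 1. All 10 passed the filter on dim values described below.

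The cells were sorted from spleen for high CD11c and divided into 3 populations: CD4+, CD8+, and cells with neither CD4 nor CD8 (double-negative, DN). Each was taken either directly at isolation (fresh) or after 2 h at 37 °C in tissue culture medium (cultured), and each of the 6 groups had 2 arrays, numbered 1 and 2. Strain, age, sex and genotype, and whether the replicates came from separate animals, are not given in the labels used here, so each p-value speaks only for the scatter of these arrays, which could be technical. The medium held no agent that the labels name.

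Class II molecules carry peptides from endocytosed protein to the cell surface, where CD4+ T cells read them. In the endoplasmic reticulum the alpha and beta chains assemble with the invariant chain, which fills the groove and guides the complex to endosomes. Proteases then trim the invariant chain to the fragment CLIP, H2-DM exchanges CLIP for antigenic peptide, and H2-O holds H2-DM in check, mainly in B cells and some dendritic cells. CIITA is the coactivator of class II transcription, which it drives through a shared promoter module that includes the X and Y boxes. In maturing dendritic cells Ciita transcription is known to shut down while stable class II complexes collect on the surface.

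The shared module could be seen upstream of members whose transcripts later moved in opposite directions. RefSeq promoter windows (build GRCm38.p6) were held for 6 of the 9 genes, as 7 windows because H2-DMa has 2 annotated starts. H2-Ab1, Cd74 and Ciita were not matched. The 200 bases before the start are given for the 5 genes in which the letters GNAAC, the core of the X box, were followed on the same strand by ATTGG, the Y box, after 20 to 32 bases. Both motifs are in capitals and each sequence reads 5′ to 3′ towards its gene. H2-Aa (chr17:34287824-34288023, minus strand) and H2-Eb1 (chr17:34305667-34305866, plus strand) are genes whose transcripts were higher after culture, and H2-DMb1 (chr17:34152991-34153190), H2-Oa (chr17:34092179-34092378) and H2-Ob (chr17:34238705-34238904), all on the plus strand, were not.
H2-Aa: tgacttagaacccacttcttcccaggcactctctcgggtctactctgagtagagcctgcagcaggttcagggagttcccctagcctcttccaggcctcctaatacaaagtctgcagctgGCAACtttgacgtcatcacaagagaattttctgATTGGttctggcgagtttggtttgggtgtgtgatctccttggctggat
H2-Eb1: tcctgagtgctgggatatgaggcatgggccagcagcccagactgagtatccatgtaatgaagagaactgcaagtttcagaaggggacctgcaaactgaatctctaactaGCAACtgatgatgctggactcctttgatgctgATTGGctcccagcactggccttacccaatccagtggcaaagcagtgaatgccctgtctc
H2-DMb1: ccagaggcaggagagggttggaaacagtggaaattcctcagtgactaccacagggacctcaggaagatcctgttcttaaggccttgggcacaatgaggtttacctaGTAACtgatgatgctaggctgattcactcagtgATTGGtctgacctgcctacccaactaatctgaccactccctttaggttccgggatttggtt
H2-Oa: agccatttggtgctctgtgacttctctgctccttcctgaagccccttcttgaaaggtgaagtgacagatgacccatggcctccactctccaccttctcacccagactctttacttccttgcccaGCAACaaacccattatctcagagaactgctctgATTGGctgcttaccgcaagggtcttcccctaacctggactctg
H2-Ob: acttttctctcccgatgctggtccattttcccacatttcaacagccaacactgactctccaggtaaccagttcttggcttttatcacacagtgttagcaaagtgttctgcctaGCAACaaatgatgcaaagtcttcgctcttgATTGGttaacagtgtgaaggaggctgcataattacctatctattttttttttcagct

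The X core lay 81 bases before the start of H2-Aa, 91 before H2-Eb1, 94 before H2-DMb1, 76 before H2-Oa and 87 before H2-Ob. Between the motifs lay 28 bases in H2-Aa, H2-DMb1 and H2-Oa, 27 in H2-Eb1 and 25 in H2-Ob. Over all 32851 promoter windows of the same length, 1.49% held this pair on either strand, 29.3% held ATTGG and 71.9% held GNAAC. Neither H2-DMa window held the pair. The pair and its spacing were defined after these sequences had been read, so the share is a description, and a match is not evidence of binding.

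Markers of the sorted subsets were clearest in fresh cells. Itgax, which encodes CD11c, lay between 874.5 and 3209.8 on the 12 arrays, Cd8a was at 679.4 or more on all arrays of CD8+ cells and at 36.1 or less on the others, and Cd4 was highest in fresh CD4+ cells (617.3 and 612.8). After culture Cd4 was at 270.9 and 112.2 in CD4+ cells and at most 105.6 in the other subsets, so it hardly set cultured CD4+ replicate 2 apart. One description of fresh CD8+ replicate 1 names CD4 instead of CD8, but its Cd8a of 1210.4 and Cd4 of 92.0 go with its title, and it was used as CD8+. Of 8 T cell markers, Cd3d, Cd3e, Cd3g, Thy1, Cd28 and Cd2 were never above the detection floor of 91.37, Cd5 reached 192.8, and Lat was above the floor on all 12 arrays (99.9 to 370.5). The Gapdh control signal at the 3′ end over that at the 5′ end, which reflects RNA integrity, was 2.55 on fresh CD8+ replicate 1, 1.97 on cultured CD4+ replicate 1, 1.34 on cultured DN replicate 1 and 0.89 to 1.04 on the other 9 arrays, and results are given with and without these 3 arrays where it matters. The same ratio for the actin control did not single out these arrays. It was 0.91, 1.16 and 0.92 on them in that order, and highest, at 1.28, on cultured CD4+ replicate 2. In bulk samples, fewer cells of a type and less RNA per cell cannot be told apart.

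After culture the members moved in opposite directions. The genes that rose were also the brightest members by median, so role and brightness cannot be told apart here. The genes of the presenting chains and the invariant chain were higher, by 1.04 to 1.24 on the log2 scale as a mean over the subsets, and the genes of H2-DM, H2-O and CIITA had values between -4.09 and -0.59, of which the smallest, for H2-DMb1, did not pass the test. All intensities are the deposited linear values, and differences are on a generalised log2 scale that stays defined below 0. In limma with Benjamini-Hochberg adjustment over the 6159 probe sets that exceeded the floor on 2 or more arrays, 9 of the 10 member probe sets had an adjusted p under 0.05 for the mean culture effect, 4 of them higher and 5 lower. Of all tested probe sets 39.3% were called in this contrast, 17.0% higher and 22.3% lower, so a single call was common here. After quantile normalization, which gives every array the same distribution of values, the division of calls was 2 higher and 6 lower.

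**Figure D1:**
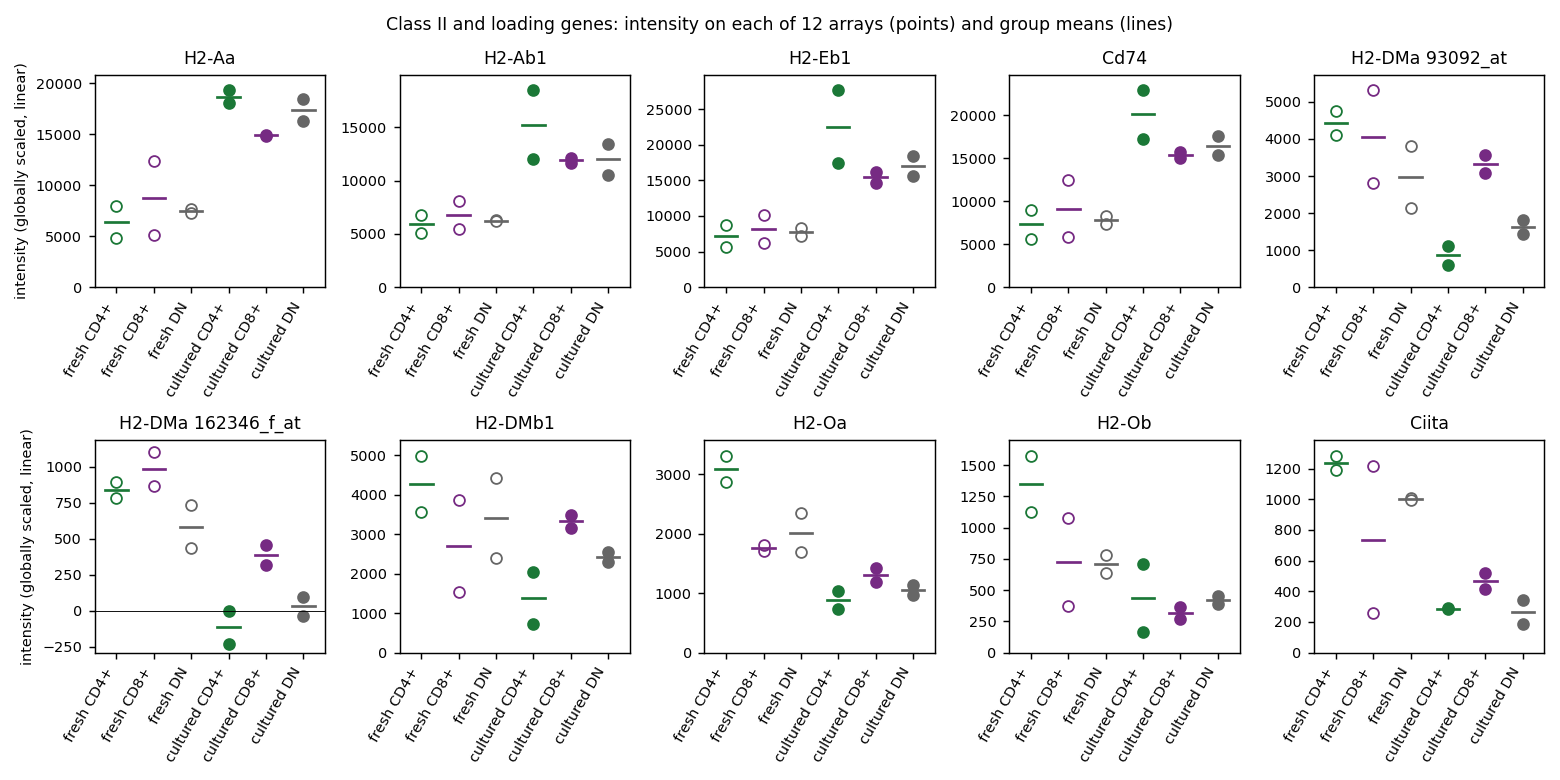
Intensity (linear, globally scaled, vertical axis starting at 0 or at the lowest value below 0) of the 10 member probe sets on each of 12 arrays, by group. Open points are fresh and filled points cultured arrays, and lines are means of 2 arrays. H2-Aa, H2-Ab1, H2-Eb1 and Cd74 have all 6 cultured arrays above all 6 fresh ones, H2-Oa has all 6 below, and the other 5 overlap.

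The alpha chain gene H2-Aa had intensities of 7967.5 and 4822.0 in fresh CD4+ cells, 12325.2 and 5075.9 in fresh CD8+ cells, and 7705.1 and 7234.6 in fresh DN cells. After culture they were 19302.5 and 18043.5, 14900.5 and 14855.7, and 16339.6 and 18469.6 in the same order of subsets. Every cultured array was therefore above every fresh array, with the nearest pair at 14855.7 and 12325.2. The mean culture effect was 1.24 ± 0.21 (log2 difference ± SE, limma adjusted p = 0.00112, 6 cultured against 6 fresh arrays), a fold of 2.36.

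The beta chain gene of the same molecule, H2-Ab1, was at 6773.4 and 5076.6 in fresh CD4+ cells, 8085.5 and 5434.8 in fresh CD8+ cells, and 6327.6 and 6185.8 in fresh DN cells. In cultured cells it was at 18481.0 and 12038.7, 12127.0 and 11694.8, and 10563.2 and 13479.1. The states again did not overlap, and the mean culture effect was 1.04 ± 0.17 (limma adjusted p = 0.000732), a fold of 2.06.

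H2-Eb1, the beta chain gene of the other class II molecule, I-E, ranged from 5600.1 through a median of 7760.8 to 10195.0 on the 6 fresh arrays and from 14676.6 through 16823.6 to 27645.9 on the 6 cultured ones. The highest value, in cultured CD4+ replicate 1, was also the highest of any probe set on that array. The mean culture effect was 1.24 ± 0.19 (limma adjusted p = 0.000487). Its partner H2-Ea lay between -6.8 and 25.5 on all 12 arrays and was not tested. Some mouse haplotypes carry an H2-Ea that is not transcribed, and the labels do not give the strain.

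Cd74, whose product chaperones all class II chains, was at 9003.6 and 5622.8, 12412.6 and 5776.3, and 8237.5 and 7381.9 in fresh CD4+, CD8+ and DN cells. After culture it stood at 22878.1 and 17270.7, 15743.5 and 14955.0, and 15358.4 and 17568.2. It followed H2-Aa on the fresh arrays (r = 0.99), including the high fresh CD8+ replicate 1, and less closely on the cultured arrays (r = 0.83). The mean culture effect of Cd74 was 1.14 ± 0.20 (limma adjusted p = 0.00137).

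These 4 genes are among the brightest features of the array, and the upper end of the scale moved with culture. Among 12422 probe sets H2-Aa ranked between 4 and 37 on fresh arrays and between 1 and 4 on cultured ones, Cd74 between 1 and 12 and then 2 and 4, and H2-Eb1 between 1 and 12 and then 1 and 4. H2-Ab1 ranked 16 to 36 and then 7 to 13. The highest intensity of an array was 6050.9 to 12785.8 in fresh and 15503.2 to 27645.9 in cultured samples, and the 3′ actin control was 4972.2 to 10057.3 and 13657.9 to 26807.9. The median over tested probe sets was 180.8 to 189.7 and 164.3 to 189.4. The root mean square of values below 0 was 26.13 to 50.31 and 42.22 to 107.64. The arrays were thus alike at middle intensities, differed at the top, and differed in part below 0. With quantile normalization the mean culture effect was 0.38 for H2-Aa (adjusted p = 0.0365), 0.27 for H2-Ab1 (0.0289), 0.18 for H2-Eb1 (0.12) and 0.09 for Cd74 (0.478), so the calls of H2-Eb1 and Cd74 were lost. The part of the array scale in the higher values of these 4 genes was not tested. Left without the 3 arrays of high Gapdh ratio, the same effects were 1.47, 1.09, 1.3 and 1.29.

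**Figure D2:**
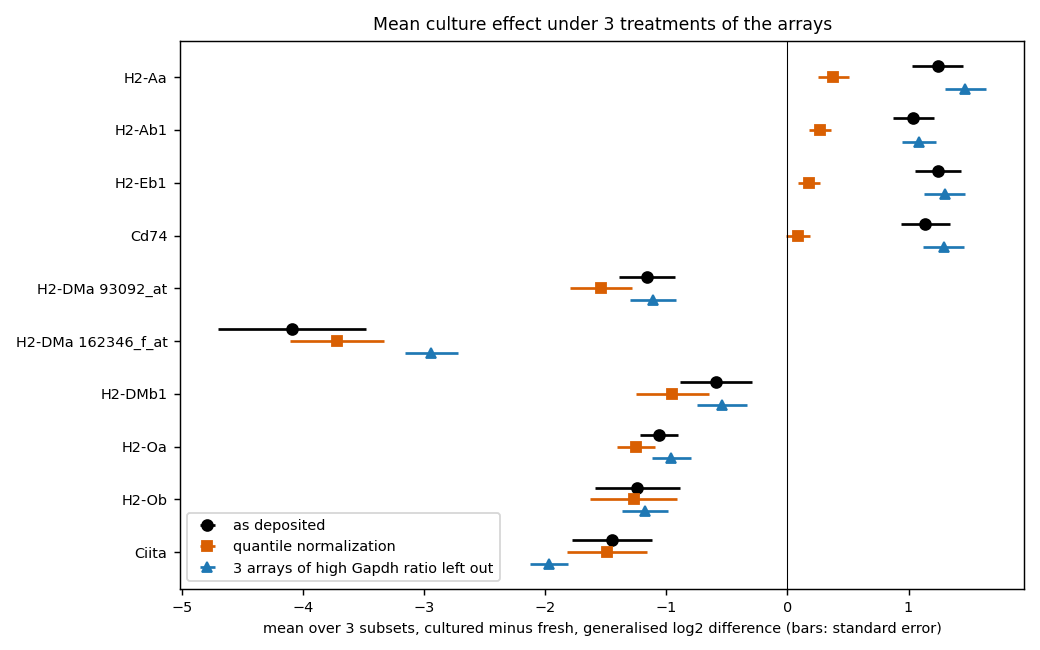
Mean culture effect (generalised log2 difference, cultured minus fresh, averaged over the 3 subsets, with standard error) of each member probe set as deposited, after quantile normalization, and with the 3 arrays of high Gapdh ratio left out. The positive values of H2-Aa, H2-Ab1, H2-Eb1 and Cd74 shrink to between 0.09 and 0.38 under quantile normalization, while the 6 negative values stay below 0 in all 3 treatments.

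H2-DM, the editor that swaps CLIP for peptide, went the other way. The brighter H2-DMa probe set was at 4754.7 and 4096.9 in fresh CD4+ cells, 2817.5 and 5312.3 in fresh CD8+ cells, and 3818.9 and 2137.6 in fresh DN cells. Cultured cells gave 608.3 and 1121.2, 3086.0 and 3558.7, and 1423.1 and 1808.2. The lowest values were those of cultured CD4+ cells, and cultured CD8+ cells stayed within the fresh range. The mean culture effect was -1.16 ± 0.23 (limma adjusted p = 0.0025).

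The dimmer H2-DMa probe set, whose suffix (f) marks probes shared with related sequences, read 894.4 and 781.7, 1097.7 and 864.0, and 731.2 and 435.3 in fresh CD4+, CD8+ and DN cells. It read -232.3 and 0.5, 320.2 and 456.4, and -35.6 and 96.9 after culture. The probe sets of this gene had the same order of cultured subsets, CD8+ above DN above CD4+, and correlated at r = 0.93 over the 12 arrays. Cultured CD4+ cells were below the floor on both arrays, and with values raised to the floor their fall was at least 8.65-fold (limma adjusted p = 0.00198). This bound is uncertain, because the negative values of cultured CD4+ replicate 1 had a root mean square of 107.64, above the common floor. The mean culture effect of this probe set, -4.09 ± 0.61 (limma adjusted p = 0.000465), depends on how values near 0 are treated. It was -2.38 when they were set to the floor.

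H2-DMb1, the partner chain, was at 4997.2 and 3564.9, 1539.6 and 3863.1, and 4439.1 and 2392.0 in fresh CD4+, CD8+ and DN cells, and at 733.1 and 2036.0, 3159.9 and 3501.1, and 2290.0 and 2540.3 after culture. It was the member whose mean culture effect missed the threshold, at -0.59 ± 0.30 (limma adjusted p = 0.134). Over the 24 alternatives it ran from -0.95 to -0.35 with adjusted p from 0.0222 to 0.329, and 3 called it. These were quantile normalization (-0.95, adjusted p = 0.0276) and leaving out fresh CD8+ replicate 1 (-0.81, adjusted p = 0.041) or cultured CD4+ replicate 2 (-0.84, adjusted p = 0.0222). It was -0.35 without cultured CD4+ replicate 1 and -0.37 without fresh CD8+ replicate 2. The near-identical H2-DMb2 was at 2816.8 and 2718.4, 193.7 and 1030.2, and 2328.6 and 1269.8 in fresh and 364.8 and 1074.1, 602.3 and 668.9, and 711.3 and 1117.0 in cultured cells. Signal of the 2 H2-DMb genes may be shared between their probes, so values of each are uncertain, and a probe set annotated to both was not used.

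H2-O, the inhibitor of H2-DM, fell too. The alpha chain gene H2-Oa was at 3316.5 and 2869.4 in fresh CD4+ cells, 1701.5 and 1815.0 in fresh CD8+ cells, and 2342.2 and 1689.7 in fresh DN cells. Cultured values were 731.6 and 1033.4, 1191.7 and 1425.1, and 970.9 and 1132.7. Every cultured array lay below every fresh one, and the mean culture effect was -1.06 ± 0.16 (limma adjusted p = 0.00045), between -1.25 and -0.96 under the 24 alternatives tried.

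The beta chain gene H2-Ob was at 1124.4 and 1575.5, 375.6 and 1079.5, and 634.1 and 776.6 in fresh and 165.1 and 708.9, 361.0 and 267.9, and 454.3 and 389.0 in cultured cells. The states overlapped because fresh CD8+ replicate 1 was low and cultured CD4+ replicate 2 was high. Its mean culture effect was -1.24 ± 0.35 (limma adjusted p = 0.0185). The call was lost when replicate 2 of fresh CD4+ (0.0517), fresh CD8+ (0.0508), fresh DN (0.0526) or cultured CD8+ cells (0.0505) was left out, the values being limma adjusted p.

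Ciita, the coactivator gene, was at 1187.6 and 1284.3 in fresh CD4+ cells, 256.2 and 1216.3 in fresh CD8+ cells, and 1008.8 and 993.3 in fresh DN cells. After culture it was at 291.7 and 281.9, 521.3 and 411.2, and 340.8 and 188.2. Except for fresh CD8+ replicate 1, which has the highest Gapdh ratio, every fresh array was above every cultured array. The mean culture effect was -1.45 ± 0.33 (limma adjusted p = 0.00533) and, with the 3 arrays of high Gapdh ratio dropped, -1.97. The transcript of the activator was thus lower after culture, while H2-Aa, H2-Ab1, H2-Eb1 and Cd74 were higher. Their higher values shrank to between 0.09 (Cd74) and 0.38 (H2-Aa) with quantile normalization. Of the genes whose promoters hold the X and Y motifs, H2-DMb1, H2-Oa and H2-Ob had r = 0.66, 0.79 and 0.75 with Ciita over the 12 arrays. H2-Aa and H2-Eb1 had -0.92 and -0.84. The brighter probe set of H2-DMa, which lacked the pair, had 0.69. For H2-DMb1, H2-Oa and H2-Ob r was 0.85, 0.51 and 0.87 within the fresh arrays and 0.34, 0.33 and -0.13 within the cultured arrays. The part of the motifs was not tested.

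Across the 6 cultured and 6 fresh arrays, 4 member probe sets were without overlap and higher, 1 was without overlap and lower (H2-Oa), and 5 overlapped. Of all tested probe sets 17.8% did not overlap between states, 7.68% higher and 10.1% lower.

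Markers of dendritic cells and of other cells that express these genes moved in part with culture. The 10 dendritic cell markers summed to 6572 to 12029 on fresh and 3411 to 7673 on cultured arrays, with a list median of -0.79 in the mean culture effect. Of them Ly75 rose (1.65), and Itgax (-0.86), Flt3 (-1.0), Sirpa (-1.91) and Itgae, which was below the floor on every cultured array, fell. Among 13 B cell markers, whose summed intensity was 3071 to 6084 on fresh and 1855 to 4570 on cultured arrays, 10 could be tested. Blk (1.12) and Pax5 (0.75) rose, and Ighm (-1.14), Cd79b (-1.02) and Cd22, an inhibitory receptor that dendritic cells also carry, fell. Cd22 was below the floor on all 6 cultured arrays and on both of fresh CD8+ cells, and its fall was at least 5.57-fold in CD4+ (limma adjusted p = 0.000774) and at least 6.56-fold in DN cells (0.000416). Cr2 and Ighd were never above the floor. The 9 macrophage markers had sums of 1587 to 4034 and 1883 to 3792, with Marco and Mertk never above the floor, and of 7 tested Cd14 rose (2.62) and Adgre1 (-1.83), Csf1r (-1.34), C1qa (-1.92) and C1qc fell, C1qc to below the floor on all 6 cultured arrays. Of all tested probe sets 39.3% were called in the mean culture effect, 17.0% higher and 22.3% lower. The part of all these markers in the lower H2-Oa, H2-Ob and H2-DM values was not tested.

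By subset, the culture effect was called for all 10 member probe sets in CD4+ cells, against 18.4% of all probe sets. Over all probe sets 7.53% were higher and 10.9% lower. The 4 higher members were H2-Eb1 (1.65 ± 0.32, limma adjusted p = 0.00645), H2-Aa (1.59), Cd74 (1.48) and H2-Ab1 (1.35). The 6 lower were both H2-DMa probe sets (-2.42 ± 0.39 for the brighter, limma adjusted p = 0.00273), Ciita (-2.10), H2-Ob (-1.95), H2-Oa (-1.83) and H2-DMb1 (-1.79). Both H2-DMa probe sets and H2-Oa were called under all 24 alternatives. The 4 positive calls were lost with quantile normalization, with only the groups compared in the fit, and without fresh CD4+ replicate 2, which left 3 member calls. Without cultured CD4+ replicate 1, the array with a Gapdh ratio of 1.97, 4 were left. H2-Ob was the weakest call in this subset (limma adjusted p = 0.0488) and was held under 8 of the 24 alternatives, and H2-DMb1 under 13. Without cultured CD4+ replicate 1 the effect of H2-Ob was -0.91 and that of H2-DMb1 -1.05.

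In DN cells 3 of the 10 were called, against 9.9% of all probe sets, 4.21% higher and 5.7% lower. H2-Eb1 rose by 1.13 ± 0.32 (limma adjusted p = 0.0488), and the dimmer H2-DMa probe set (-4.07 ± 1.05, adjusted p = 0.0334) and Ciita (-1.97 ± 0.56, adjusted p = 0.0499) fell. The size for H2-DMa is uncertain, because its cultured DN arrays were at -35.6 and 96.9, below and just above the floor. It was -2.58 with values raised to the floor and -2.47 without cultured DN replicate 1 (adjusted p = 0.271). H2-Aa (1.22), Cd74 (1.07), H2-Ab1 (0.93) and H2-Oa (-0.92) had adjusted p between 0.0536 and 0.0753. In a fit blocked on the replicate number, these 4 were called too (limma adjusted p of 0.0316, 0.0329, 0.0375 and 0.0414 in that order), which made 7 calls. These calls rest on few arrays, since none was left when either array of fresh CD4+, fresh DN or cultured CD8+ cells, or cultured DN replicate 1, was omitted, and 1 without cultured DN replicate 2. Nor was any left with the smaller offset, without the filter or without the trend, and with quantile normalization the 3 calls were all lower. Without fresh CD8+ replicate 1 or 2 there were 6, and without cultured CD4+ replicate 1 or 2 there were 5. Without the 3 arrays of high Gapdh ratio H2-Aa was at 1.31 and Ciita at -2.39. That fit holds 1 cultured DN array, which is assumed to vary like the other groups. Over all probe sets this contrast had 610 calls. They ran from 90 to 966 when 1 array was left out and from 502 to 1178 under the other alternatives.

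In CD8+ cells limma called 0 of the 10, against 8.13% of all probe sets, and 4 had an unadjusted p under 0.05, as had 23.5% of all probe sets. Those 4 were H2-Aa (0.91 ± 0.37, adjusted p = 0.162), H2-Ab1 (0.85 ± 0.29, adjusted p = 0.0997), H2-Eb1 (0.96 ± 0.32, adjusted p = 0.0976) and Cd74 (0.86 ± 0.35, adjusted p = 0.166). The other members were at -0.27 for Ciita, -0.43 for H2-Oa, -1.03 for H2-Ob and 0.45 for H2-DMb1. The brighter H2-DMa probe set was at -0.22 and the dimmer at -1.34. The fresh arrays of this subset stood apart for every member except H2-Oa and the dimmer H2-DMa probe set. Replicate 1 was the higher for H2-Aa, H2-Ab1, H2-Eb1 and Cd74 and the lower for the brighter H2-DMa probe set, H2-DMb1, H2-Ob and Ciita, and except for H2-DMb1 it was the nearer to the cultured CD8+ values. Without the 3 arrays of high Gapdh ratio, which include it, the effects were 1.55 for H2-Aa, 1.41 for Cd74, 1.32 for H2-Eb1 and 1.13 for H2-Ab1. They were -1.39 for Ciita, -1.79 for H2-Ob and -0.22 for H2-DMb1. That fit rests on 1 fresh CD8+ array, which is assumed to vary like the other groups. With only fresh CD8+ replicate 1 left out, H2-Aa was at 1.55 and Cd74 at 1.41. With only fresh CD8+ replicate 2 left out, Ciita was at 0.85 and the brighter H2-DMa probe set at 0.23, both reversed in sign. The replicate block gave 1 member call in this subset, H2-Eb1 (limma adjusted p = 0.0426). Over all probe sets this contrast had 501 calls. They ran from 130 to 770 when 1 array was left out and from 362 to 991 under the other alternatives.

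**Figure D3:**
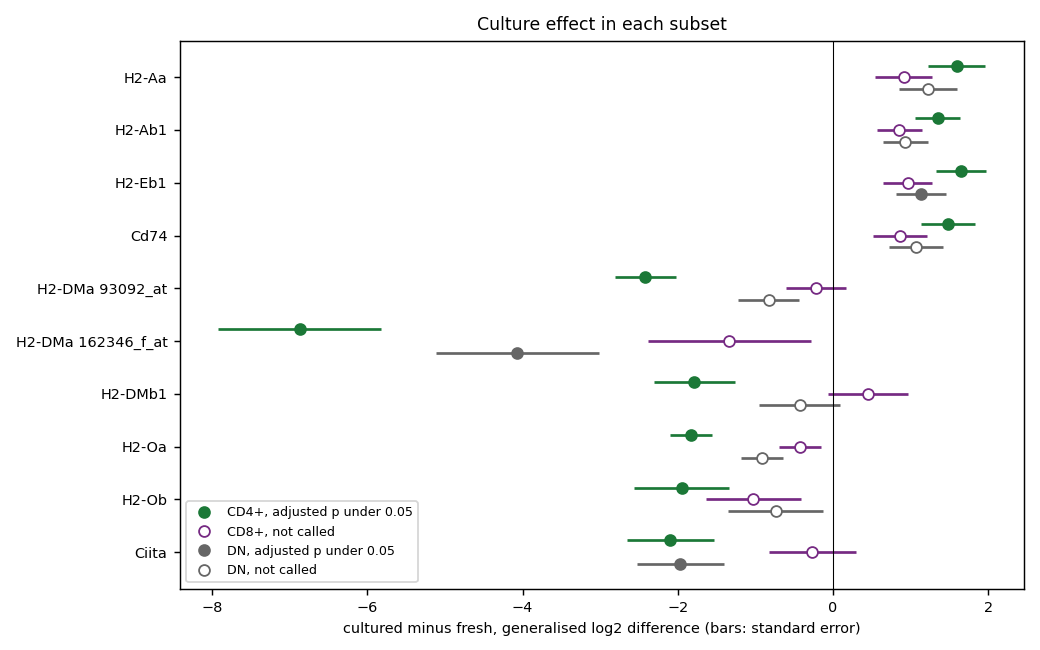
Culture effect (generalised log2 difference, cultured minus fresh, 2 arrays each) of the 10 member probe sets in CD4+, CD8+ and DN cells, with standard errors. Filled points have an adjusted p under 0.05. All 10 are called in CD4+ cells, 3 in DN cells and 0 in CD8+ cells, and the negative values are farthest from 0 in CD4+ cells.

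A call in CD4+ cells and none in CD8+ cells is not a difference between them. The difference of culture effects between subsets was called by limma for 0 members in all 3 pairings, and the share of all probe sets called was 0.0% in each. At an unadjusted p under 0.05 there were 5 member probe sets for CD8+ against CD4+ cells, 2 for DN against CD4+ cells and 0 for CD8+ against DN cells, and the shares of all probe sets were 8.52%, 2.06% and 4.06%. Without cultured CD4+ replicate 2, 3 were called in CD8+ against CD4+ cells, and 1 was when the 3 arrays of high Gapdh ratio were dropped.

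No member passed the test between fresh subsets. Limma called 0 of the 10 in each fresh contrast, against 1.98% of all probe sets for CD8+ minus CD4+, 1.43% for CD8+ minus DN and 0.0% for DN minus CD4+, and the counts at an unadjusted p under 0.05 were 1, 0 and 1, against 11.1%, 9.47% and 1.32% of all probe sets. Both of those were H2-Oa, which was at -0.81 ± 0.27 for CD8+ minus CD4+ (adjusted p = 0.214) and -0.63 ± 0.27 for DN minus CD4+ (adjusted p = 1.0). Its 2 arrays of fresh CD4+ cells were above the 4 of the other fresh subsets. The same held for H2-Ob, at 1124.4 and 1575.5 against at most 1079.5, with a CD8+ minus CD4+ difference of -1.06 ± 0.61 (adjusted p = 0.632). Outside the members, the class II beta chain gene H2-Eb2 was at 258.0 and 309.2 in fresh CD4+ cells and below the floor in fresh CD8+ cells (-8.6 and 26.9), a difference of at least 2.94-fold that was not called (limma adjusted p = 0.0923). Without fresh CD8+ replicate 2 there were 2 member calls over the fresh contrasts.

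After culture the subsets differed in H2-DMa. Both of its probe sets were higher in cultured CD8+ than in cultured CD4+ cells, by 2.00 ± 0.39 for the brighter (limma adjusted p = 0.0248) and at least 3.97-fold for the dimmer (limma adjusted p = 0.0186), and these were 2 of 10 members against 2.29% of all probe sets, 1.41% of them higher. The bound for the dimmer is uncertain, because the noise of cultured CD4+ replicate 1 lay above the common floor. The means were 3322 ± 334.2 (SD, n = 2) in CD8+ and 865 ± 362.7 (SD, n = 2) in CD4+ cells for the brighter. H2-DMb1 values lay in the same direction, at 3159.9 and 3501.1 against 733.1 and 2036.0, with a difference of 1.44 ± 0.52 (adjusted p = 0.211). Neither H2-DMa call was held without cultured CD8+ replicate 1 (adjusted p of 0.137 and 0.124), without cultured CD8+ replicate 2 (0.186 and 0.156) or without cultured CD4+ replicate 1 (0.107 and 0.0522), in limma and in the order of the probe sets above. In the other 2 cultured contrasts limma called 0 members, against 1.3% of all probe sets for CD8+ minus DN and 0.0% for DN minus CD4+, with 2 and 1 at an unadjusted p under 0.05, against 10.5% and 3.82% of all probe sets. With array weights both H2-DMa calls were lost (adjusted p of 0.0835 for the brighter and 0.065 for the dimmer).

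The order of the 6 group means, taken from the same values, shows the division between higher and lower members only in part. For H2-Aa, H2-Ab1, H2-Eb1 and Cd74 it ran from cultured CD4+ through cultured DN and cultured CD8+ to fresh CD8+, fresh DN and fresh CD4+ cells. The arrays of neighbouring groups overlapped throughout this order except between cultured CD8+ and fresh CD8+ cells and, for H2-Aa, between cultured DN and cultured CD8+ cells. For H2-Oa the order began with fresh CD4+ cells (3093 ± 316.1, SD, n = 2) and ended with cultured CD4+ cells (882 ± 213.4, SD, n = 2). Fresh CD4+ cells also led for the brighter H2-DMa probe set, H2-DMb1, H2-Ob and Ciita, and cultured CD4+ cells came last for both H2-DMa probe sets and H2-DMb1. Fresh and cultured groups were mixed in 2 of these orders. For the brighter H2-DMa probe set cultured CD8+ cells (mean 3322) stood above fresh DN cells (2978). For H2-DMb1 cultured CD8+ cells (3330) stood above fresh CD8+ cells (2701).

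The divisions follow the direction of the culture effect on these same arrays. Correlation over all 12 arrays therefore largely restates that direction. Over 12 arrays, the 6 pairs among H2-Aa, H2-Ab1, H2-Eb1 and Cd74 had a Pearson r of 0.95 to 0.99, and the 15 pairs among H2-DMa, H2-DMb1, H2-Oa, H2-Ob and Ciita had 0.55 to 0.93. All 24 pairs between the divisions were negative, from -0.92 (H2-Aa with Ciita) to -0.59. The points share culture state and array. Within the 6 fresh arrays alone, r was 0.97 to 0.99 in the bright division and -0.44 to 0.87 in the other, where 3 of 15 pairs were below 0. It was below 0 in 20 of the 24 pairs between them. The dimmer H2-DMa probe set was above 0 with each gene of the bright division (0.29 to 0.38). Within the 6 cultured arrays the ranges were 0.68 to 1.00 and -0.13 to 0.97, and 24 of 24 pairs between divisions were below 0. Cultured CD4+ replicate 1 (Gapdh ratio 1.97) was the highest cultured array for each bright gene and the lowest for H2-DMa, H2-DMb1, H2-Oa and H2-Ob. Fresh CD8+ replicate 1 (2.55) was the highest fresh array for each bright gene and the lowest for H2-DMb1, H2-Ob and Ciita. The weight of these arrays in r was not tested.

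**Figure D4:**
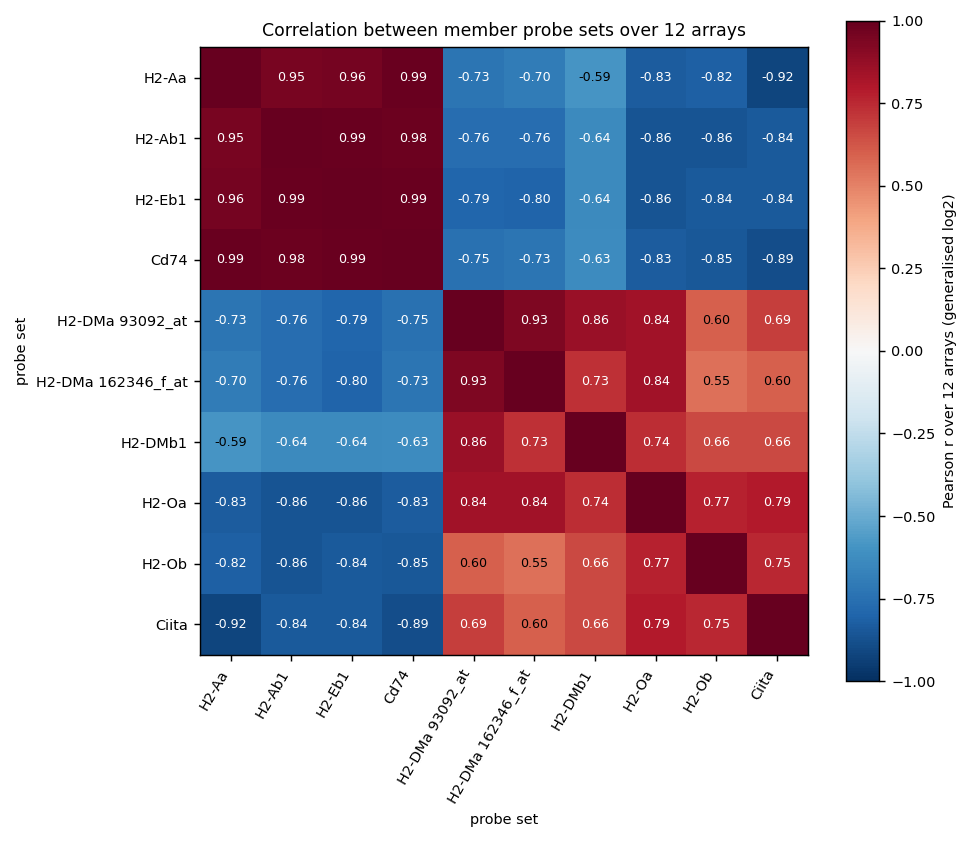
Pearson correlation between member probe sets over 12 arrays (generalised log2 scale, numbers in cells, colour from -1 to 1). The block of H2-Aa, H2-Ab1, H2-Eb1 and Cd74 lies at 0.95 or above, the block of the other 6 probe sets at 0.55 or above, and all cells between them lie at -0.59 or below.

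The genes most like a member over the 12 arrays were looked for with H2-Aa, Cd74, H2-Oa, the brighter H2-DMa probe set and Ciita. For H2-Aa the nearest was Cd74 (r = 0.99), and H2-Aa was among the 3 nearest to Cd74, together with Rplp0, a ribosomal stalk protein gene (r = 0.99), and Tmsb4x, which encodes an actin monomer binder (r = 0.988). Rplp0 ranged from 5782.0 to 11170.5 on fresh and from 11950.8 to 19300.4 on cultured arrays, so its states did not overlap either. Tmsb4x was also next to H2-Aa (r = 0.981), before Dtd2 (r = 0.976).

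The brighter H2-DMa probe set was most like Man2b1, a lysosomal mannosidase gene (r = 0.978), then Itch (0.966) and Etfb (0.963). H2-Oa was most like Chmp6 and Rnf181 (both 0.944) and D17H6S56E-5 (0.935). Ciita was most like Hltf (0.973), Cdk5 (0.949) and Rabggta (0.937), all 3 of them dim, with Rabggta at 138.2 or less on every array.

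On chromosome 17 the division of the members followed gene order. RefSeq places H2-Oa, H2-DMa, H2-DMb2, H2-DMb1, H2-Ob, H2-Ab1, H2-Aa, H2-Eb1, H2-Eb2 and H2-Ea in this sequence, with Psmb9, Tap1, Psmb8 and Tap2 between H2-DMb1 and H2-Ob and no protein-coding gene between H2-Ob and H2-Ab1. The mean culture effects of the genes from H2-Oa to H2-Ob were -1.06, -1.16, -0.86, -0.59 and -1.24, of which those of H2-DMb2 (limma adjusted p = 0.103) and H2-DMb1 were not called. The next 3, from H2-Ab1 to H2-Eb1, were 1.04, 1.24 and 1.24. H2-Eb2 beyond them had -0.28 ± 0.51 (limma adjusted p = 0.68) at intensities of 369.1 or less. Ciita lies on chromosome 16 and Cd74 on chromosome 18, outside this stretch.

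**Figure D5:**
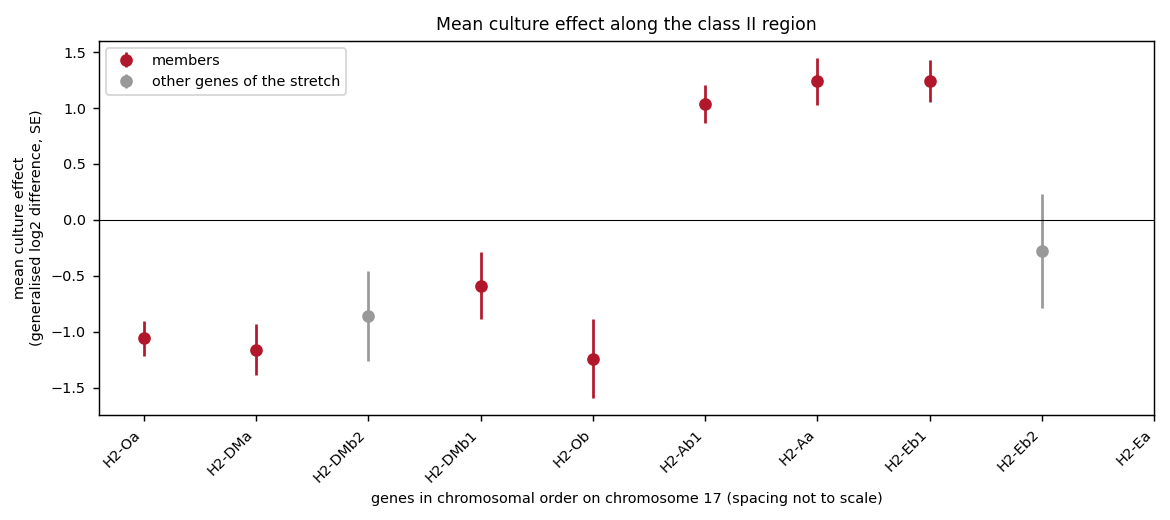
Mean culture effect (generalised log2 difference with standard error) of the class II genes in chromosomal order on chromosome 17, evenly spaced and not to scale, with the brighter probe set of H2-DMa. The 5 genes from H2-Oa to H2-Ob lie below 0 and H2-Ab1, H2-Aa and H2-Eb1 above it, and H2-Ea was not tested.

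Transcription factors and modifiers of class II transcription changed with culture in both directions, as did many other probe sets. In the mean culture effect 39.3% of all tested probe sets were called, 17.0% higher and 22.3% lower. Of 14 listed genes 11 were measured, and 3 rose and 2 fell, with a list median of 0.20 against -0.02 over all probe sets. Those that rose were Socs1, which dampens the interferon signal that can induce Ciita (2.80 ± 0.33, limma adjusted p = 0.000104), Prdm1, a repressor of Ciita transcription (at least 1.47-fold, adjusted p = 0.000205), and Irf4 (1.75 ± 0.40, adjusted p = 0.00583). Those that fell were Irf8 (-1.04 ± 0.38, adjusted p = 0.0493) and Nfyb, a subunit of the factor that binds the Y box (-0.90 ± 0.27, adjusted p = 0.0219). Prdm1 stayed dim, at 22.8 or less on fresh and 88.5 to 214.7 on cultured arrays, and was below the floor on all fresh arrays. Rfx5, the X box factor gene, was not analysed here. In fresh cells Irf8 was higher in CD8+ than in CD4+ cells (4.28 ± 0.66, limma adjusted p = 0.00585) at 8271.2 and 5016.8 against 447.5 and 242.7, without a called difference in any member.

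Of 19 listed genes of antigen processing 16 were measured. In the mean culture effect 6 rose and 1 fell, against 17.0% higher and 22.3% lower of all tested probe sets, with a list median of 0.26. The largest changes upward were in Cd63 (2.16 ± 0.26, limma adjusted p = 0.00013), a tetraspanin of late endosomes, and Lgmn (2.03 ± 0.16, adjusted p = 7.92e-06), the endopeptidase that starts invariant chain cleavage. Cd9 (1.55), Ctsz (1.16), Lamp2 (1.06) and Cst3 (0.56) also rose, and Ctsh (-0.67) fell. Lgmn was at 177.5 to 236.0 on fresh and 443.1 to 1245.0 on cultured arrays. Ctss, the protease that finishes invariant chain cleavage, had -0.09 ± 0.16 (limma adjusted p = 0.677), and Ifi30, the lysosomal thiol reductase, -0.40 ± 0.30 (adjusted p = 0.299). Psap, the saposin precursor, fell in CD4+ cells (-1.18 ± 0.30, limma adjusted p = 0.0221) and was higher in cultured CD8+ than CD4+ cells (2.45 ± 0.30, adjusted p = 0.00155), the contrast in which H2-DMa was called. Psap was also higher in cultured CD8+ (8663.1 and 9141.0) than in cultured DN cells (2281.4 and 2429.9), a contrast in which H2-DMa was not called.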

How the data were processed

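The deposited values are Average Difference intensities on a linear scale, to which the authors applied global scaling, per the labels; the software is not given in the sources used here. Of 12488 probe sets, 66 controls were left out, and 19.7% to 26.5% of an array's values lay below 0. Each value x was transformed to log2 of (x + sqrt(x² + c²)) / 2, called generalised log2, where c = 45.69 is the median of the 12 arrays' root mean squares of negative values. The floor was 2 times c, 91.37. For a group under the floor on both arrays, folds are bounds, computed with its values raised to the floor where lower. The floor is common to all arrays. On cultured CD4+ replicate 1 the root mean square of negative values was 107.64, so bounds that use this array are uncertain. limma 3.58.1 (R 4.3.3) fitted 1 mean per group over 12 arrays with eBayes (trend, robust), 6 residual degrees of freedom, and Benjamini-Hochberg adjustment over the 6159 probe sets exceeding the floor on 2 or more arrays. The script was tested on simulated data. Precision is limited by the number of arrays, 2 per group.

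Members and lists were chosen with earlier results of these data known. All members are named with their values, and their differences in each contrast where they were called. From the regulator and processing lists, Ctss, Ifi30, Irf8, Irf4 and Rfx5 and up to 4 called genes per contrast are named by rule; further genes and the markers were named after their values were seen. Likeness is, for 5 members, the 3 single-symbol probe sets of highest Pearson r over 12 arrays. Tables and figures used Python 3.11.15, pandas 2.3.3, numpy 2.4.6 and matplotlib 3.10.9. Alternatives covered the offset, floor, filter, normalization, moderation, array quality, replicate block and leaving out each array, where the lone array left in a group is assumed to vary like the other groups.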

Additional observations from a re-analysis of the deposited data

How the results depend on the processing

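Of the 42 differences of single members followed under 24 alternatives, 861 values kept direction and side of the threshold, 101 lost the call, 40 gained one and 6 reversed, none of the 6 with a call in either setting. The reversed values were 0.23 for the brighter H2-DMa probe set and 0.85 for Ciita in CD8+ cells without fresh CD8+ replicate 2, -0.22 for H2-DMb1 in CD8+ cells without fresh CD8+ replicate 1 and also with the 3 arrays of high Gapdh ratio left out, 0.01 for H2-DMb1 in DN cells without fresh DN replicate 1, and -0.04 for Cd74 in DN cells with quantile normalization. Over leaving out each array, these ran from -0.68 to 0.23 for H2-DMa and -1.39 to 0.85 for Ciita in CD8+ cells, and for H2-DMb1 from -0.22 to 1.11 in CD8+ and -0.88 to 0.01 in DN cells. The cause was not tested.

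The 22 member calls over the 4 culture contrasts ranged from 11 to 28 when 1 array was left out, and fewest were left without fresh CD4+ replicate 2. The 2 calls between cultured subsets became 1 with quantile normalization, 0 with only the groups compared, 1 without the trend, 3 with values raised to the floor and 4 when the arrays of high Gapdh ratio were dropped. With array weights both were lost and 1 was made in another contrast, CD8+ minus DN. The count ranged from 0 to 4 when 1 array was left out. The 0 calls between fresh subsets ranged from 0 to 2, and the 0 calls for differences in culture effect from 0 to 3, with 1 when the arrays of high Gapdh ratio were dropped.

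Counts over all probe sets called moved with single arrays: 1133 for the CD4+ culture effect (306 to 2115), 501 for CD8+ (130 to 770), 610 for DN (90 to 966) and 2420 for the mean (1699 to 3131).

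The labels number experiments 1 and 2 in each group and do not say that cells of a number shared animals or a day. Deviations of same-numbered arrays correlated at 0.106 to 0.444 over 15 pairs of groups. With the replicate block, member calls were 10 in CD4+, 1 in CD8+, 7 in DN and 9 in the mean culture effect.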

Other observations

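Maturation genes were higher after culture, while the mean culture effect of Ciita was negative. On single arrays they did not always go together. Ciita was at 256.2 on fresh CD8+ replicate 1, within its cultured range of 188.2 to 521.3, but maturation genes summed to at most 5455 in fresh CD8+ cells. A link between them was not tested. In the mean culture effect 17.0% of all tested probe sets were called higher and 22.3% lower. Of 11 listed genes of dendritic cell maturation, 10 rose and 0 fell, with a median of 2.00 on the log2 scale. The summed intensity of the list was 4953 to 5968 on fresh and 16561 to 24763 on cultured arrays. Those that rose were Ccr7 (3.58), which directs migration to lymph nodes, Cd86 (2.81), Cd40 (2.31), Cd83 (2.00) and Cd80 (1.74), which act in T cell stimulation, and Il12b, Socs3, Cish, Icam1 and Relb, while Fscn1 was not called. By subset, 4 rose in CD4+, 5 in CD8+ and 5 in DN cells, where 18.4%, 8.13% and 9.9% of all probe sets were called in either direction.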
